A study of Mus musculus with 47 samples.

Results

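The step across lights-off was examined in the mouse cortex, as the change in RNA between Zeitgeber time (ZT) 10, the last sampling of the light phase, and ZT14, the first sampling of the dark phase. Lights went on at ZT0 and off at ZT12. The comparison used 15 of the 47 libraries of the series, with 1 library per mouse: 8 mice at ZT10 (4 on control diet and 4 on PLX5622 diet) and 7 mice at ZT14 (3 on control diet and 4 on PLX5622 diet). All mice were male C57BL/6J animals of about 3 months, kept in a light/dark cycle with 4 mice to a cage. Which mice shared a cage is not given in the sources used here. The chow was fed for 10 days, and the PLX5622 chow held the inhibitor at 1200 ppm. PLX5622 blocks CSF1R, the receptor on which microglia depend for survival, so the PLX5622 mice lacked most of these cells. Diets were pooled and diet was kept as a term in every fit. Expression was read as TPM (a normalised transcript abundance), which scales a gene's reads for its length and for the depth of the library, and tests covered the 14580 genes whose TPM averaged 1 or more across the 47 libraries. A gene was called where its adjusted p in limma, a linear model fitted to log2(TPM + 1), fell under 0.05. Changes on this log2 scale understate the change of genes with low TPM.

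Mice are nocturnal, and lights-off opens their active phase. In cells with a running clock, CLOCK and BMAL1 switch on the Period and Cryptochrome genes, whose proteins later switch CLOCK and BMAL1 off, and other clock proteins such as REV-ERB and the PAR bZIP factors pass the rhythm to further genes. Waking also brings neuronal firing, which drives immediate early genes within minutes, a daily peak of corticosterone in the blood, and a rise in brain temperature, which heat-shock and cold-inducible genes follow. The gene lists described below were arranged by these inputs.

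The libraries held 16795170 to 27626161 counted reads in genes. Markers of cortical glutamatergic neurons summed to between 3121 and 4846 TPM in each of the 15 libraries, and all 14 genes of that list were detected. Markers of microglia, 18 genes, summed to 790 to 994 TPM in the control mice and 28.5 to 152 TPM in the PLX5622 mice. The libraries also held RNA of tissue next to the cortex. Pmch, a neuropeptide gene of the lateral hypothalamus, stood at 69.8, 48.5 and 20.1 TPM in 3 control ZT10 mice. It read 25.98 TPM in 1 PLX5622 ZT14 mouse and 0.477 to 7.97 TPM in the other 11 mice. Avp and Oxt, also hypothalamic genes, read 53.6 and 45.4 TPM in control ZT14 mouse 2. In control ZT14 mouse 1 they read 0.246 and 0.864 TPM. Hypothalamic RNA was thus also present in libraries with little Pmch. The hypothalamic markers, 8 genes, summed to a median of 196 TPM at ZT10 and 4.67 TPM at ZT14 in control mice. In PLX5622 mice the medians were 57.8 and 87.5 TPM. Summed markers of blood, 5 genes, ran from 345 to 2919 TPM at ZT10 and from 307 to 2285 TPM at ZT14, those of choroid plexus from 264 to 1173 and from 117 to 1110 TPM, and those of striatal projection neurons from 246 to 1099 and from 459 to 1254 TPM. The slope of a library's expression against exon length ran from -0.0756 to 0.0367 at ZT10 and from -0.0126 to 0.0677 at ZT14 (exact permutation test within diet, two-sided, p = 0.00898, adjusted p = 0.0718 over 16 library measures). Results were therefore also computed with the slope as a term and without the 4 Pmch-rich libraries, which left 5 ZT10 mice, of which 1 (mouse 4) was on control diet and was taken to vary like the other groups. In bulk tissue, fewer cells of a type and less RNA per cell cannot be told apart.

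From ZT10 to ZT14 expression moved mostly upward. Of 14580 genes, 156 were higher at ZT14 (1.07%) and 20 were lower (0.137%), and 167 of these 176 genes (1.21% of those tested) code for proteins. All 176 moved the same way in both diets, which their choice in the pooled mice favours. The step was larger in control mice for 131 of the 176, a count that was not tested. The changes were modest in size: the median absolute log2 change of the called genes was 0.48, and only 6 called genes passed a 2-fold rise on this scale (Arc, Egr1, Nr4a1, Plin4, Hspa1b and Nr4a3) while none fell by as much. In 91 genes every ZT14 mouse lay above every ZT10 mouse (0.624% of genes tested) and in 16 every ZT14 mouse lay below (0.11%); 68 and 7 of these were among the called genes.

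The predominance of rises depended in part on scaling. The median log2 change over all genes tested was 0.08, and median-of-ratios scaling brought it to 0.002. With that scaling 1.47% of genes were called, 142 higher (0.974%) and 72 lower (0.494%), so the share of higher calls went from 88.6% to 66.4%. The edgeR quasi-likelihood test on the deposited counts called 3.61% of 16697 genes, 412 higher (2.47%) and 191 lower (1.14%), and 154 of the 176 genes were called in the same direction by both tests. The number of called genes ran from 35 without the third control ZT14 mouse to 373 without the first PLX5622 ZT10 mouse; it fell to 89, 53 and 107 without control ZT10 mice 1, 3 and 4, to 57 without the first control ZT14 mouse, to 101 and 52 without PLX5622 ZT10 mice 2 and 3, and to 56 and 55 without PLX5622 ZT14 mice 3 and 4, and rose to 277 without the second control ZT14 mouse. It was 3 without the 4 Pmch-rich libraries (Plin4, Mfsd2a and Tipin), where 1 control ZT10 mouse remained and the loss of mice and of the Pmch-rich tissue cannot be told apart, and 1 with the exon-length slope as a term (Plin4). The median log2 changes in these fits were 0.46 and 0.32 for the 156 higher genes and -0.45 and -0.43 for the 20 lower genes, against 0.49 and -0.46 with all 15 mice.

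**Figure D1:**
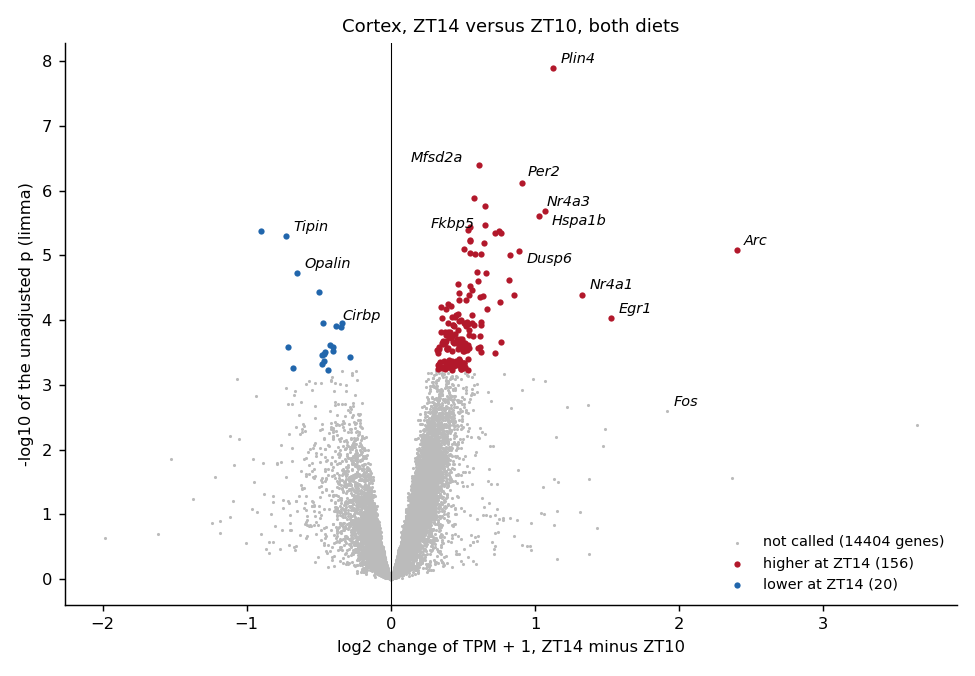
Each point is 1 of the 14580 genes tested, with its log2 change of TPM + 1 from ZT10 to ZT14 on the x axis and -log10 of its unadjusted limma p on the y axis (8 mice at ZT10, 7 at ZT14). Red marks the 156 genes called higher and blue the 20 called lower; Arc stood furthest to the right among the called genes, at 2.40, and Plin4 had the smallest p.

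Part of the negative arm of the clock rose at lights-off and no gene of its positive arm was called. Of 13 clock repressor genes tested, 4 were higher at ZT14 (Per1, Per2, Cry1 and Bhlhe40) and none was lower, against 1.07% and 0.137% of all genes. Of 6 activator genes none was called. Median log2 changes of repressors and activators were 0.19 and 0.15, against 0.08 for all genes. The activator changes ran from -0.07 to 0.34. An unadjusted limma p under 0.05 was found for 8 of 13 repressors and 3 of 6 activators, against 3143 of all 14580 genes. Of the 4 genes in the list of PAR bZIP outputs and their antagonist Nfil3, 1 rose (Hlf). Promoter sequence was taken from RefSeq (GRCm38.p6), as the 300 bases from 250 before to 50 after an annotated start, for 5 risen genes of these lists and of the immediate early list. The sequences are printed because CLOCK and BMAL1 bind the E-box CACGTG and CREB binds the cAMP response element TGACGTCA or its core TGACG, and Period genes are known to answer to both. Capitals mark matches to these letters on either strand, so that the core also appears as CGTCA, and the cAMP response element holds the core on each strand. The Per1 window (chr11:69098699-69098998, plus strand) held an E-box 166 bases before the start and 1 core, whereas a second Per1 window (chr11:69099902-69100201), not printed, held 1 core and no E-box. The Cry1 window (chr10:85185005-85185304, minus strand) held an E-box 60 bases before the start and 1 core, and the Hlf window (chr11:90390868-90391167, minus strand) a complete cAMP response element 9 bases before the start, which overlaps 2 cores.

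Per1: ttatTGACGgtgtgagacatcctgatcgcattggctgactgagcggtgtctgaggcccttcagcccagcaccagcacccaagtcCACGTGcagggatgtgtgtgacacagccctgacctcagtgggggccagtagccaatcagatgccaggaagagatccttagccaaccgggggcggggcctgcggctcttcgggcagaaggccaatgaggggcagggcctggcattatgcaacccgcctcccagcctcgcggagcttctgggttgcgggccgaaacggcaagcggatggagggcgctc

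Cry1: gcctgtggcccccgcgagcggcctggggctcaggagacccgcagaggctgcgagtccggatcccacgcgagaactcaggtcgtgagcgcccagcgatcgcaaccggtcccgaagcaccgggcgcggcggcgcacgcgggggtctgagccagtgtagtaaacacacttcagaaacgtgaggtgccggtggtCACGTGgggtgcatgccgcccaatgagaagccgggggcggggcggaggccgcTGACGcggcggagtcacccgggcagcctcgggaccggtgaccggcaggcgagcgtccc

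Hlf: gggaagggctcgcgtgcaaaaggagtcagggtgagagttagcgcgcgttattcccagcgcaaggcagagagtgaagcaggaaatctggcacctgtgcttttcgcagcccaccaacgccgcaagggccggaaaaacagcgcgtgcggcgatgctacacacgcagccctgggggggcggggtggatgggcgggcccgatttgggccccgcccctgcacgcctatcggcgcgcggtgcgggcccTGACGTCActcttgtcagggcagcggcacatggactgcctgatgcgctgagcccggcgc

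The E-box was present in 7.15% of all 32851 promoter windows, in 9.63% of the 14064 windows of genes tested here and in 17 of the 137 windows (12.41%) of genes higher at ZT14. The cAMP response element was present in 1.79%, 2.91% and 4.38% (6 windows) of the same windows. Neither motif was found in the 18 windows of genes lower at ZT14. AP-1 sites, CArG boxes, heat shock elements and glucocorticoid response elements were found in 5, 1, 0 and 0 of the 137 windows of higher genes. Their shares were 3.65%, 0.73%, 0% and 0% against 4.86%, 1.34%, 0.48% and 0.34% in windows of genes tested. Counts this small cannot set these shares apart, and no test was run. A match describes the letters in the window and not a bound site. Per2 and Bhlhe40 had no entry in the promoter table, nor had the risen genes Sik1, Dusp4, Trib1 and Zbtb16, described below.

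Per2, a core repressor of the clock (chr1:91415982-91459324, GRCm38), stood at 4.65 TPM in the lowest ZT10 mouse, 5.36 at the median and 7.86 in the highest, and at 9.96, 11.3 and 17.7 TPM at ZT14. Every ZT14 mouse exceeded every ZT10 mouse. The log2 change was 0.91 ± 0.11 (SE, 8 and 7 mice; limma adjusted p = 0.0037), 1.03 in control and 0.81 in PLX5622 mice. Cry1, whose protein holds CLOCK and BMAL1 in check, was at 8.36, 9.16 and 11.8 TPM (lowest, median and highest) at ZT10 and at 12.2, 14.3 and 17.3 TPM at ZT14, again without overlap. Its log2 change was 0.55 ± 0.08 (limma adjusted p = 0.00582), with 0.56 in control and 0.54 in PLX5622 mice. Both calls held without any 1 mouse, and both were lost without the 4 Pmch-rich libraries, where Per2 had a log2 change of 0.75 (adjusted p = 0.0687) and Cry1 of 0.51 (adjusted p = 0.231).

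Per1, a Period gene known to respond quickly to cAMP and calcium signals, ran from 18.3 through 22.6 to 33.5 TPM at ZT10 and from 31.8 through 35.2 to 42.1 TPM at ZT14 (lowest, median and highest). The groups overlapped through the highest ZT10 mouse, which passed the lowest 3 of the ZT14 mice. Its log2 change was 0.54 ± 0.11 (limma adjusted p = 0.0334), 0.82 in control and 0.29 in PLX5622 mice, and the difference between diets had an unadjusted p of 0.0128 that did not pass adjustment over all genes. Bhlhe40 (DEC1), a repressor that competes at E-boxes, went from 33.6, 39.1 and 50.6 TPM to 51.2, 62.4 and 87.3 TPM without overlap (0.60 ± 0.13, limma adjusted p = 0.0339). Hlf, a PAR bZIP activator, went from 49.9, 64.0 and 80.9 to 71.2, 87.5 and 104 TPM with overlap (0.40 ± 0.09, limma adjusted p = 0.0456). These 3 calls were the less secure ones: Per1, Bhlhe40 and Hlf missed the threshold in 8, 9 and 13 of the 15 fits that each left out 1 mouse, with adjusted p up to 0.0994, 0.0879 and 0.109, and Per1 and Hlf missed it under median-of-ratios scaling (0.0662 and 0.063).

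The other clock genes did not pass the test in these 15 libraries. Cry2 had a log2 change of 0.28 (adjusted p = 0.0898), Nr1d2 of 0.24 (0.0986), Tef of 0.26 (0.0722), Per3 of 0.16 (0.213) and Clock of 0.21 (0.224). Cry2 was called by edgeR (adjusted p = 0.0407). Dbp, the most rhythmic PAR bZIP gene in many tissues, stood at 109 to 138 TPM at ZT10 and 115 to 141 TPM at ZT14, Nr1d1 (REV-ERB alpha) at 50.1 to 72.4 and 58.7 to 92.8 TPM, and Arntl, which encodes BMAL1, at 7.05 to 9.95 and 7.92 to 9.76 TPM. Their log2 changes were 0.07, 0.13 and 0.04, and those of Dbp and Arntl took the opposite sign under median-of-ratios scaling (-0.01 and -0.03). The ZT10 and ZT14 ranges overlapped in each of these 3 genes, and 1 control ZT14 mouse (92.8 TPM) lay above the other mice for Nr1d1. Over the 6 times, with the mean of both diets, Dbp was at 121 TPM at ZT10 and 127 TPM at ZT14 and lowest at ZT2 (47.5 TPM), whereas Arntl was lowest at ZT10 (8.41 TPM) and highest at ZT2 (15.7 TPM).

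**Figure D2:**
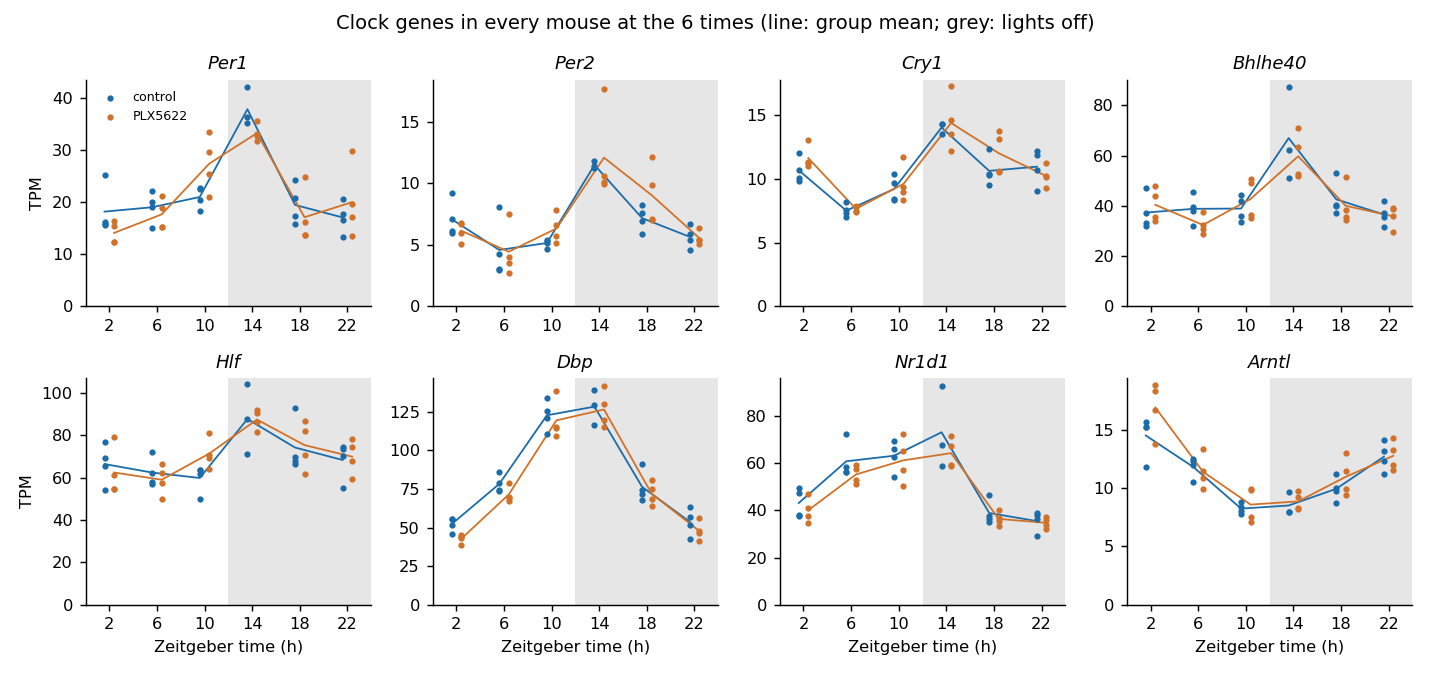
TPM of 8 clock genes in every mouse (points) at the 6 Zeitgeber times in hours, with blue for control diet and orange for PLX5622 diet; lines join group means and grey marks lights off. Per1, Per2, Cry1, Bhlhe40 and Hlf have their highest means at ZT14, Dbp and Nr1d1 are near their highest level at both ZT10 and ZT14, and Arntl is near its lowest.

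Immediate early transcription factors had the highest median log2 change of the lists examined. Blood genes came next at 0.55 (0.46 under median-of-ratios scaling), with 5 of 5 positive and none called. The blood median was 0.88 in control and 0.32 in PLX5622 mice. Of 20 immediate early factors tested, 7 were higher at ZT14 (Fosl2, Egr1, Nr4a1, Nr4a3, Klf4, Klf10 and Ier5) and none was lower. All 20 had a positive log2 change, with a median of 0.63, against 0.08 and 67.8% positive values for all genes. Under median-of-ratios scaling their median was 0.56 and 19 were positive. Among 25 activity-regulated effector genes, 5 rose (Arc, Sik1, Dusp4, Dusp6 and Trib1) and the median was 0.29. Over all genes tested, 1.07% were called higher. Nr4a1 and Nr4a3 are orphan nuclear receptors and known targets of CREB. Their windows are shown because each held 4 of the TGACG cores (Nr4a1, chr15:101266596-101266895; Nr4a3, chr4:48045055-48045354; both on the plus strand), a number reached by 76 of all 32851 windows (0.231%) and by 66 of the 14064 windows of genes tested (0.469%).

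Nr4a1: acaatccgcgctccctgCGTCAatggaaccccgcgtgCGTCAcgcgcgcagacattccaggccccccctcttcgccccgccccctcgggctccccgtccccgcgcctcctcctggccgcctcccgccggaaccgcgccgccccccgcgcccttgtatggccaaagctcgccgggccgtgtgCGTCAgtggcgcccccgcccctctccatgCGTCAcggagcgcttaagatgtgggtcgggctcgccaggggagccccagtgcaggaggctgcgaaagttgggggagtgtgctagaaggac

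Nr4a3: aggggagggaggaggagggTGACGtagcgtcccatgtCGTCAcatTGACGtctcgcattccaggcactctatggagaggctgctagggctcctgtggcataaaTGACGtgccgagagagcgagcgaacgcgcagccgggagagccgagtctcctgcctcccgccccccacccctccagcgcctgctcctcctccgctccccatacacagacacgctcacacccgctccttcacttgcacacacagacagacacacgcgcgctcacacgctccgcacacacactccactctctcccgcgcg

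At least 1 core was found in 20.81% of all windows, in 29.87% of those of genes tested and in 34.31% of those of genes higher at ZT14. For genes lower at ZT14 the share was close to this, at 33.33% (6 of 18 windows). Klf4 held an E-box and a core and is not printed, Fosl2 and Ier5 held none of the motifs searched, and Arc, Egr1 and Klf10 had no entry in the table.

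Arc, which encodes a synaptic protein that guides AMPA receptor removal (chr15:74669083-74672570), showed the largest rise of any called gene. It stood at 13.7 TPM in the lowest ZT10 mouse, 24.5 at the median and 90.8 in the highest, and at 125, 165 and 240 TPM at ZT14. No ZT14 mouse fell within the ZT10 range. The mean went from 39.5 ± 30.4 to 174 ± 37.0 TPM (SD, n = 8 and 7), a 4.40-fold difference of means, and the log2 change was 2.40 ± 0.37 (limma adjusted p = 0.00582), 2.73 in control and 2.11 in PLX5622 mice.

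Nr4a1 was at 12.7, 18.9 and 43.2 TPM at ZT10 (lowest, median and highest) and at 48.5, 53.7 and 60.5 TPM at ZT14, and Nr4a3 at 2.65, 3.68 and 5.64 TPM and at 6.74, 9.06 and 12.4 TPM. In both genes all ZT14 mice lay above all ZT10 mice. Their log2 changes were 1.33 ± 0.23 and 1.03 ± 0.14 (limma adjusted p = 0.0157 and 0.00467). Egr1, a zinc finger factor induced by MAP kinase signaling, went from 23.6, 28.2 and 90.8 TPM to 78.6, 103 and 184 TPM, with a log2 change of 1.53 ± 0.29 (limma adjusted p = 0.0246) and an overlap made by 1 ZT10 mouse. Fosl2, a Fos-family member of AP-1, went from 3.57, 4.62 and 5.45 to 6.35, 7.62 and 8.38 TPM without overlap (0.65 ± 0.09, limma adjusted p = 0.00467). Klf10, Klf4 and Ier5 had log2 changes of 0.72, 0.49 and 0.53 (limma adjusted p = 0.0358, 0.0316 and 0.0346).

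Fos itself did not pass. It stood at 1.17, 3.54 and 31.6 TPM at ZT10 and at 14.4, 18.4 and 39.3 TPM at ZT14, and its log2 change of 1.91 ± 0.53 had an adjusted p of 0.0827. The ranges overlapped through the fourth ZT10 mouse of each diet, which read 31.6 TPM in control and 20.2 TPM in PLX5622, against 1.17 to 6.09 TPM in the other 6 ZT10 mice. The same 2 mice were the highest at ZT10 for Arc (90.8 and 81.6 TPM), Nr4a1, Egr1, Dusp6 and Npas4, but not for Nr4a3. Without these 2 mice, which were left out because they read highest for these genes so that larger changes follow from the choice, Fos had a log2 change of 2.61 and Npas4, a factor induced by neuronal firing, of 1.40 in place of 0.78, while Arc had 2.87, Egr1 1.88 and Nr4a1 1.64. Without the 4 Pmch-rich libraries Arc, Egr1, Nr4a1 and Nr4a3 had log2 changes of 1.77, 1.15, 0.93 and 0.98 and none was called (adjusted p = 0.194, 0.271, 0.271 and 0.129). Control mouse 4, one of the 2 high mice, was then the sole control mouse at ZT10. Egr1, Klf10, Nr4a1 and Sik1 missed the threshold in 6, 10, 1 and 1 of the 15 fits without 1 mouse (adjusted p up to 0.072, 0.107, 0.0566 and 0.0566).

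**Figure D3:**
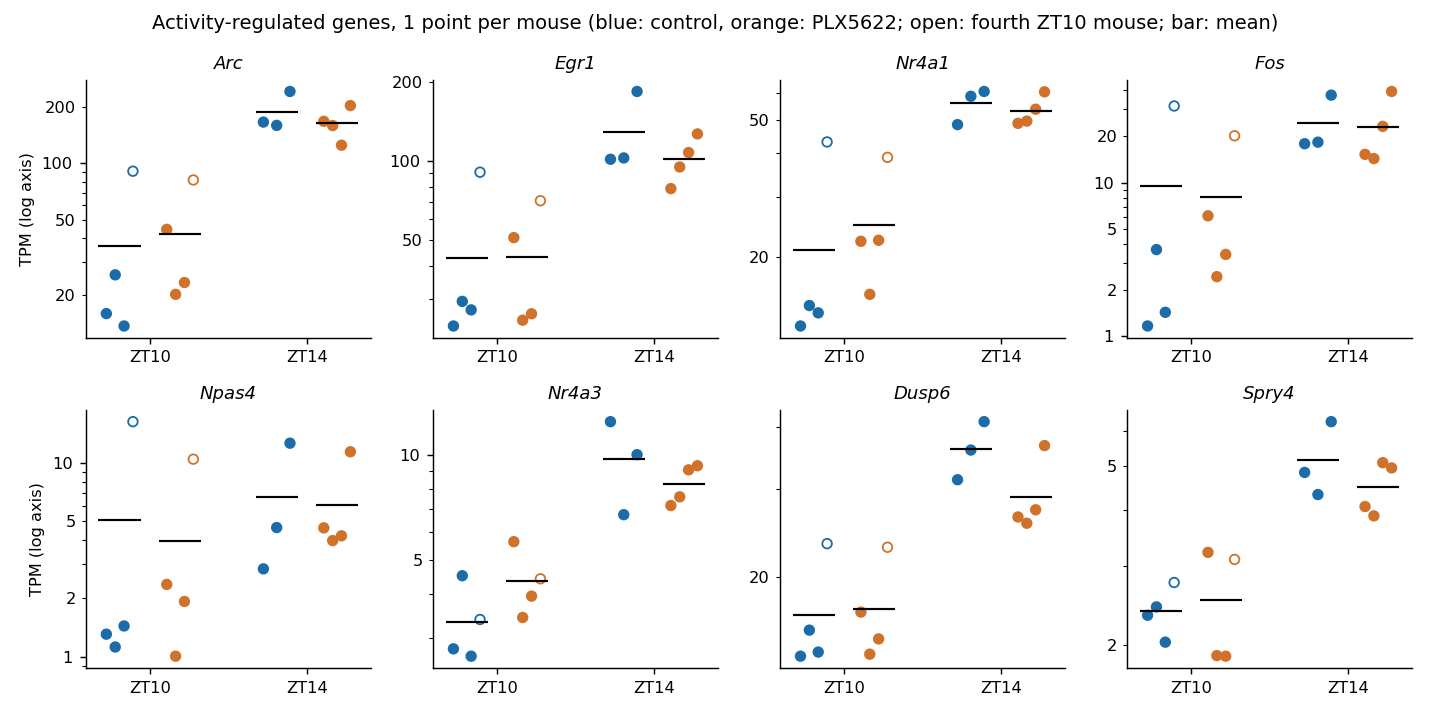
TPM on a log axis of 8 activity-regulated genes, 1 point per mouse, at ZT10 (4 control in blue, 4 PLX5622 in orange) and ZT14 (3 control, 4 PLX5622); bars are arithmetic means and open circles the fourth ZT10 mouse of each diet. In Arc, Nr4a1, Nr4a3, Dusp6 and Spry4 all ZT14 mice lie above all ZT10 mice, and in Fos, Egr1 and Npas4 at least 1 open circle reaches into the ZT14 range.

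Some genes that restrain MAP kinase and cAMP signaling rose too. Of 20 tested, 5 were higher (Dusp4, Dusp6, Spry2, Spry4 and Sik1; 1.07% of all genes), none was lower and all 20 had a positive log2 change (67.8% of all genes), with a median of 0.33 (0.25 under median-of-ratios scaling, where 19 were positive). Dusp4, Dusp6 and Sik1 also stand in the list of activity-regulated effectors, so the lists are not independent. Dusp6, a phosphatase of ERK, went from 13.9, 15.4 and 23.4 TPM (lowest, median and highest) to 25.7, 31.4 and 41.0 TPM without overlap (0.89 ± 0.14, limma adjusted p = 0.00582). Spry4, a Sprouty inhibitor of growth factor signaling, went from 1.89, 2.38 and 3.21 to 3.88, 4.84 and 6.29 TPM without overlap (0.75 ± 0.11, limma adjusted p = 0.00467). Trib1, a pseudokinase scaffold, went from 3.50, 4.60 and 6.39 to 7.60, 8.66 and 10.2 TPM without overlap (0.77 ± 0.11, limma adjusted p = 0.00467). The calls of these 3 genes held without any 1 mouse. Dusp1, an immediate early member of the Dusp4 and Dusp6 family, had a log2 change of 1.07 with an adjusted p of 0.0566 and was not called.

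Genes known to be induced through the glucocorticoid receptor formed a further list, of which a part rose. Of 17 tested, 5 were higher (Plin4, Fkbp5, Zbtb16, Sult1a1 and Errfi1; 1.07% of all genes) and none was lower. A positive log2 change was found in 15 (67.8% of all genes), and the median was 0.31. Plin4, a lipid droplet coat protein (chr17:56100591-56109803), had the smallest p of all genes. It stood at 0.625, 0.999 and 1.09 TPM at ZT10 and at 2.32, 3.56 and 4.62 TPM at ZT14, so that the lowest ZT14 mouse exceeded the highest ZT10 mouse. The log2 change was 1.13 ± 0.10 (limma adjusted p = 0.000189) and 1.69 in edgeR, which adds no constant of 1 TPM, and the call held without any 1 mouse, with the exon-length slope (1.24) and without the 4 Pmch-rich libraries (1.12).

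Fkbp5, a co-chaperone that lowers the affinity of the glucocorticoid receptor, was at 10.6, 11.9 and 13.6 TPM at ZT10 and at 16.3, 18.5 and 24.7 TPM at ZT14, without overlap (0.65 ± 0.09, limma adjusted p = 0.00467). Zbtb16, a transcriptional repressor, went from 5.83, 7.14 and 11.99 to 10.6, 11.7 and 15.1 TPM with 1 ZT10 mouse inside the ZT14 range (0.62 ± 0.13, limma adjusted p = 0.0339). Sult1a1, a sulfotransferase, and Errfi1, an inhibitor of EGF receptor signaling, had log2 changes of 0.54 and 0.46 (limma adjusted p = 0.0275 and 0.0325). Zbtb16, Sult1a1 and Errfi1 missed the threshold in 10, 7 and 8 of the 15 fits without 1 mouse, with adjusted p up to 0.0965, 0.0879 and 0.0951, and Sult1a1 also under median-of-ratios scaling (0.069). Tsc22d3 (GILZ), a widely used reporter of corticosterone action, had a log2 change of 0.41 with an adjusted p of 0.0601 in limma and of 0.0379 in edgeR. Sgk1, Ddit4, Klf9, Mt1 and Mt2 of the same list were not called, at 0.28, 0.20, 0.29, -0.04 and -0.11.

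Some chaperones of the cytosol and of the endoplasmic reticulum rose. Of 18 heat-shock chaperone genes, 4 were higher (Hspa1a, Hspa1b, Dnajb1 and Hspb1; 1.07% of all genes), none was lower and the median log2 change was 0.28. Hspa1b, an inducible HSP70, went from 3.08, 3.93 and 5.40 TPM to 6.54, 8.97 and 16.2 TPM, and Hspa1a from 3.19, 4.66 and 5.05 to 6.46, 7.74 and 14.7 TPM, both without overlap. Their log2 changes were 1.07 ± 0.14 and 0.82 ± 0.14 (limma adjusted p = 0.00467 and 0.0121), but the 2 genes are near-identical copies and how their reads were divided is uncertain. Hspb1, a small heat-shock protein, went from 12.4, 15.2 and 18.4 to 17.6, 26.5 and 46.9 TPM with overlap (0.86 ± 0.15, limma adjusted p = 0.0157), and Dnajb1, the HSP40 partner of HSP70, from 17.9, 21.2 and 25.96 to 26.8, 31.6 and 41.8 TPM (0.54 ± 0.10, limma adjusted p = 0.0246). Abundant members such as Hspa8, Hsp90aa1 and Hsp90ab1 were not called, at 0.31, 0.23 and 0.17.

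Of 20 endoplasmic reticulum genes, 4 were higher (Hspa5, Pdia4, Xbp1 and Sdf2l1; 1.07% of all genes), 19 had a positive log2 change (67.8% of all genes) and the median was 0.27. Hspa5 (BiP), the main chaperone of the lumen, was at 52.3, 73.0 and 85.0 TPM at ZT10 and at 89.9, 107 and 146 TPM at ZT14. All ZT14 mice were higher than all ZT10 mice (0.62 ± 0.12, limma adjusted p = 0.0246). Xbp1, a transcription factor of the unfolded protein response, went from 32.3, 37.6 and 42.4 to 44.9, 50.1 and 64.7 TPM without overlap (0.47 ± 0.09, limma adjusted p = 0.0237). Pdia4 and Sdf2l1, both helpers of folding, had log2 changes of 0.63 and 0.50 (limma adjusted p = 0.0246 and 0.0325), and Sdf2l1 was not called under median-of-ratios scaling (0.0653). Hspa5, Pdia4, Xbp1, Sdf2l1 and Dnajb1 missed the threshold in 5, 6, 5, 5 and 5 of the 15 fits without 1 mouse, with adjusted p up to 0.09.

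The falls were fewer and included 2 cold-inducible and 2 myelin genes. Of 4 cold-inducible RNA-binding genes, 2 were lower at ZT14, against 0.137% of all genes. Cirbp, an RNA-binding protein that rises as temperature drops, stood at 112, 130 and 141 TPM at ZT10 and at 87.9, 94.6 and 113 TPM at ZT14. The groups met only where the highest ZT14 mouse reached the lowest ZT10 mouse (-0.38 ± 0.08, limma adjusted p = 0.0246). Srsf5, a splicing factor, went from 160, 184 and 214 TPM to 90.3, 144 and 154 TPM without overlap (-0.46 ± 0.10, limma adjusted p = 0.0446). Rbm3, the other widely studied cold-inducible gene, was at 156 to 212 TPM and 170 to 212 TPM, with a log2 change of -0.02 that became 0.01 without the fourth ZT10 mouse of each diet. The calls of Cirbp and Srsf5 were lost without those 2 mice, where the log2 changes were -0.36 and -0.43 (adjusted p = 0.0579 and 0.0849), and in 3 and 12 of the 15 fits without 1 mouse (up to 0.0728 and 0.0953).

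Tipin, a partner of the circadian protein TIMELESS at the replication fork (chr9:64281581-64305424), showed the largest fall among the named genes. It stood at 24.8, 37.4 and 40.7 TPM at ZT10 and at 16.1, 19.9 and 32.0 TPM at ZT14, with an overlap between the highest ZT14 and the lowest ZT10 mice (-0.73 ± 0.11, limma adjusted p = 0.00495). Its call held without any 1 mouse and without the 4 Pmch-rich libraries. Opalin, a membrane protein of mature oligodendrocytes, went from 20.9, 27.0 and 30.9 to 11.1, 18.03 and 19.8 TPM without overlap (-0.65 ± 0.11, limma adjusted p = 0.00983), and Pllp (plasmolipin), a myelin proteolipid, from 65.2, 79.3 and 96.4 to 46.7, 55.4 and 73.6 TPM with overlap (-0.48 ± 0.10, limma adjusted p = 0.0382). The Pllp call was lost in 10 of the 15 fits without 1 mouse (adjusted p up to 0.114). Of the list of 14 myelin genes, which does not hold Pllp, Opalin was the 1 called by limma (0.137% of all genes were lower), and edgeR also called Aspa (-0.42, adjusted p = 0.0386). The list had a median of -0.13, and Mbp, which encodes myelin basic protein, had a log2 change of -0.20 with a limma adjusted p of 0.465.

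Hist3h2ba, a histone gene, Lsm5 and Lsm7, components of Sm-like rings that act on RNA, and Tnni1, Alkbh3, Tcta and the antisense transcript Zfp335os made up the remaining named falls. Their log2 changes were -0.50, -0.40, -0.35, -0.47, -0.42, -0.34 and -0.48. Hist3h2ba stood at 72.5 to 89.4 TPM at ZT10 and 49.2 to 70.2 TPM at ZT14, without overlap. Lsm5 and Lsm7 missed the threshold in 9 and 6 of the 15 fits without 1 mouse (adjusted p up to 0.101 and 0.0808). Alkbh3 and Zfp335os were not called by edgeR, and reads of Zfp335os cannot be told apart from those of the gene on the other strand without stranded counting, which is not stated. Of the remaining named rises, Kirrel2, an adhesion protein, went from 5.24 to 6.91 TPM at ZT10 to between 8.60 and 19.9 TPM at ZT14 (0.83 ± 0.13, limma adjusted p = 0.00582), Cbfa2t3, a transcriptional corepressor, from 5.002 to 8.78 TPM to between 9.56 and 16.8 TPM (0.76 ± 0.14, 0.0181) and Fmo2, a monooxygenase, from 0.931 to 2.56 TPM to between 1.96 and 4.49 TPM (0.76 ± 0.16, 0.0325). Fmo2 alone of these 3 had overlapping groups, and its call was lost in 9 of the 15 fits without 1 mouse (adjusted p up to 0.0994).

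In the vasculature, 2 of 14 endothelial genes rose, against 1.07% of all genes. Mfsd2a, the blood-brain barrier carrier of docosahexaenoic acid, stood at 14.5, 16.2 and 20.6 TPM at ZT10 and at 24.4, 25.7 and 27.0 TPM at ZT14. The groups did not overlap, and the ZT14 mice lay close to each other (25.9 ± 0.856 TPM, SD, n = 7). The log2 change was 0.61 ± 0.07 (limma adjusted p = 0.00297), and it remained called without the 4 Pmch-rich libraries (0.67). Ly6c1 went from 83.9, 97.6 and 118 to 112, 118 and 140 TPM (0.34 ± 0.08, limma adjusted p = 0.0456) and was lost in 12 of the 15 fits without 1 mouse (adjusted p up to 0.107) and under median-of-ratios scaling (0.096). All 14 endothelial markers were detected, and their sum ran from 344 to 449 TPM at ZT10 and from 397 to 507 TPM at ZT14 (exact permutation test, p = 0.00653, adjusted p = 0.0718 over 16 measures). The part of this sum in the 2 calls was not tested.

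Among 21 receptors for sleep and wake neuromodulators, 2 rose (1.07% of all genes): Hrh3, the histamine H3 autoreceptor, and Adrb1, the beta-1 adrenoceptor. Hrh3 went from 44.5, 63.7 and 77.4 TPM to 77.2, 84.9 and 88.8 TPM, where the highest ZT10 mouse just passed the lowest ZT14 mouse. Adrb1 went from 8.26, 10.5 and 14.2 to 13.7, 16.6 and 17.9 TPM. The log2 changes were 0.40 ± 0.09 and 0.51 ± 0.11 (limma adjusted p = 0.0446 and 0.0346). Hrh3 was not called by edgeR (0.0516) or under median-of-ratios scaling (0.104), and the calls of Hrh3 and Adrb1 were lost in 10 and 9 of the 15 fits without 1 mouse (adjusted p up to 0.123 and 0.104). Of the 21 receptor genes, 20 had a positive log2 change, against 67.8% of all genes, and the median of the list was 0.24.

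By limma in the 15 libraries no member was called in lists of 18 microglial, 14 astrocyte, 11 oligodendrocyte precursor, 10 mural, 14 glutamatergic neuron, 14 interneuron, 8 perineuronal net, 17 matrix protease, 24 cholesterol and 14 interferon genes. Of their 141 genes, 19 had an unadjusted p under 0.05, a smaller share than the 3143 of all 14580 genes tested. These 10 lists are not all the lists without a call. Such a p was found for 33 of 78 ribosomal protein, 32 of 82 respiratory chain and 7 of 19 potassium channel genes. It was also found for 3 of 7 thyroid hormone and 3 of 6 clock activator genes. Only 3 of 37 proteasome genes had one, and no mitochondrially encoded, striatal, choroid plexus, blood, border macrophage or hypothalamic gene did. Gpr17, an oligodendrocyte precursor gene, was called higher by edgeR (0.35, adjusted p = 0.0151), and in the fit of 47 libraries 1 oligodendrocyte precursor, 1 astrocyte and 1 matrix protease gene were called higher. Perineuronal nets, the lattices around interneurons that the study examined, had a median of 0.19, and Tnr, at 0.42, had an adjusted p of 0.162. Of a hypothalamic list of 8 genes, added after the data were seen, 4 were tested and none was called by limma or edgeR, with a median of -0.92, which was -2.98 in the control mice and 0.84 in the PLX5622 mice (the difference between diets was not tested for the list). The microglial list had a median of 0.09 over mice that kept and mice that lacked most microglia. The 78 cytosolic ribosomal protein genes had a median of -0.15 and only 1 positive value, and the 82 nuclear respiratory chain genes a median of -0.11. All 19 voltage-gated potassium channel genes were positive (67.8% of all genes), with a median of 0.27. By edgeR 5 respiratory chain genes were called lower and 2 potassium channel genes higher (1.14% and 2.47% of all genes). In the fit of 47 libraries 9 respiratory chain and 4 ribosomal protein genes were called lower (0.686% of all genes). That fit called 2 potassium channel genes higher (4.97% of all genes). Over all genes, ordered by exon length into 4 groups, the median log2 change was -0.02 in the group with the shortest exons, then 0.06 and 0.10, and 0.16 in the group with the longest. In the same order 17, 42, 41 and 56 genes were called higher and 13, 6, 1 and 0 lower, so the calls also followed exon length. The part of exon length in these medians and calls was not tested. The medians of the cholesterol, astrocyte, interferon, proteasome and choroid plexus lists (0.07, 0.08, 0.03, 0.02 and 0.01) changed sign under median-of-ratios scaling (-0.02, -0.01, -0.05, -0.07 and -0.05).

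**Figure D4:**
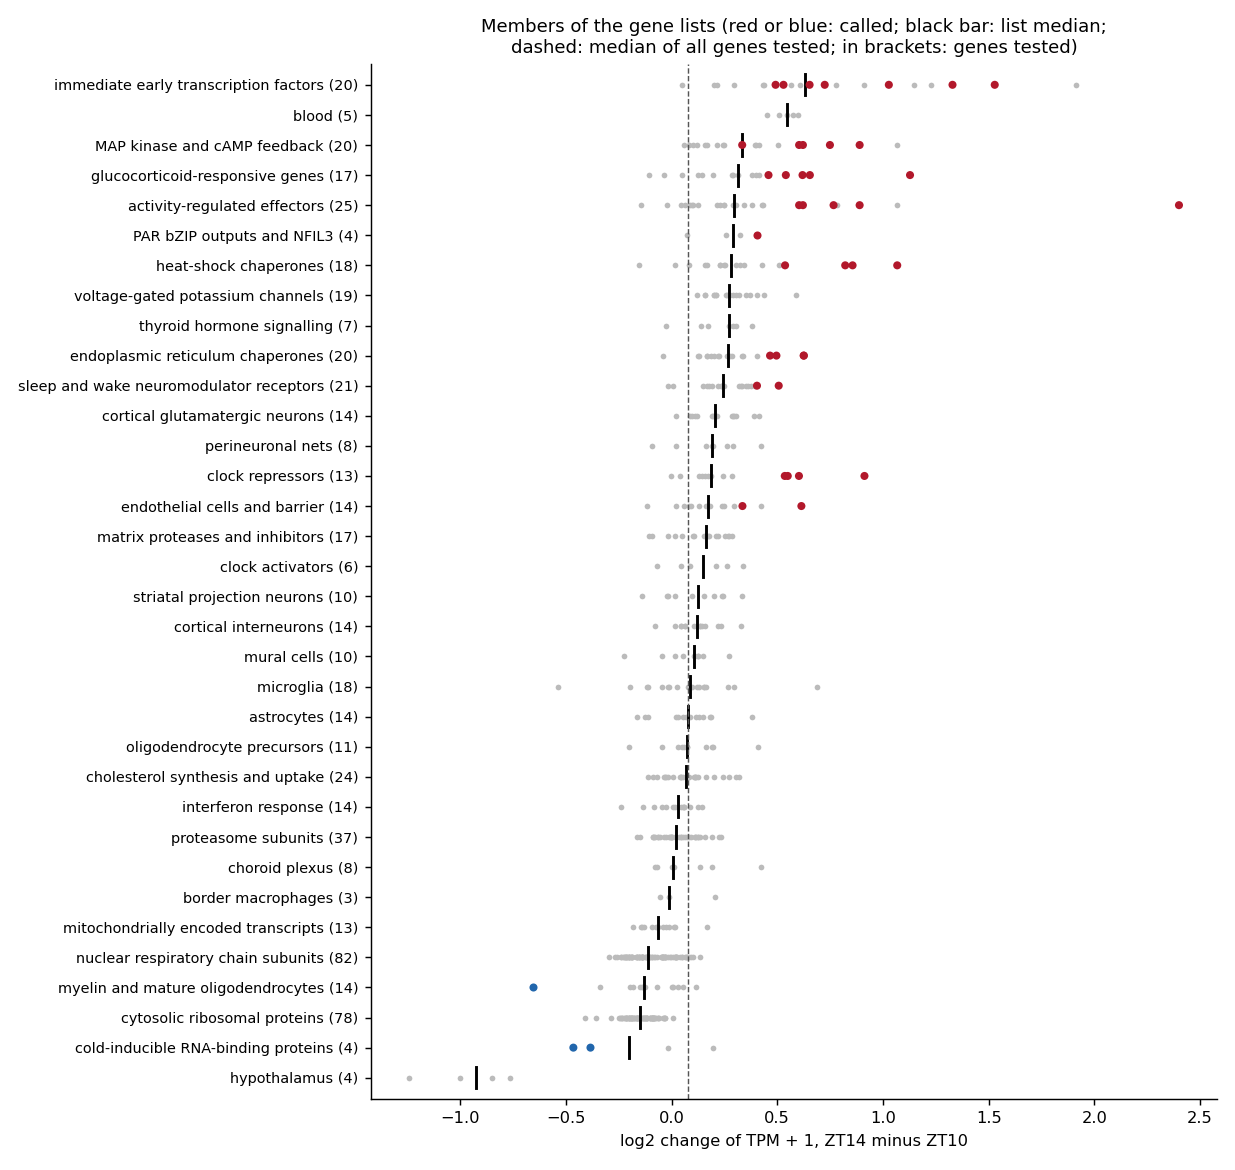
Log2 change of TPM + 1 from ZT10 to ZT14 (x axis) for every tested member of each list (rows, number tested in brackets); red and blue points were called, grey points were not, black bars are list medians and the dashed line is the median of all genes, 0.08. Immediate early factors stand furthest right at a median of 0.63, and the 4 hypothalamic genes furthest left with no call.

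The step was compared between diets, since microglia had been removed from the PLX5622 mice. No gene passed the test of a different step between diets (0% of genes tested, smallest adjusted p = 0.43), and 454 genes had an unadjusted p below 0.05 (5% of the genes tested is 729). The edgeR test found none (711 unadjusted) and DESeq2 found 1. A step of equal size in both diets is not shown by this, as 3 or 4 mice stood in each group. Within 1 diet the groups were small and few genes were called: Plin4, Hspa1b and Nr4a3 in control mice (0.0206% of genes tested), and Plin4 and Mfsd2a in PLX5622 mice (0.0137%). In control mice the 3 calls were lost without any 1 of control ZT10 mice 1, 2 and 3 or control ZT14 mice 1 and 3, and the count was 13 without the fourth ZT10 mouse and 67 without the second ZT14 mouse. In PLX5622 mice no gene was called without ZT10 mouse 2 or ZT14 mouse 1 or 2, and 1 gene was called without ZT10 mouse 4 or ZT14 mouse 3 or 4. Among the 10 genes with the smallest p for a diet difference, Neu4, a sialidase of oligodendrocytes, had log2 changes of 0.44 in control and -0.24 in PLX5622 mice and Trh, the thyrotropin-releasing hormone gene, of -0.91 and 0.65, both with an adjusted p of 0.9997.

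The opposite transition served as a comparison, from ZT22 to ZT2 across lights-on, with 8 mice at each time and none shared with the lights-off step. Across lights-on no gene rose and 3 fell (0.0206%): Atp10a, a lipid flippase, Xdh, xanthine dehydrogenase, and Tsc22d3, with log2 changes of -0.50, -0.64 and -0.52 (limma over 47 libraries, adjusted p = 0.0113, 0.0151 and 0.0151). Under median-of-ratios scaling 7 rose and 7 fell. The count was 0 without control ZT22 mouse 2 or 3, 1 without control ZT22 mouse 4, control ZT2 mouse 1 or PLX5622 ZT2 mouse 4, 5 without control ZT10 mouse 2 and 8 without PLX5622 ZT22 mouse 2. In the fit of all 47 libraries the lights-off step had 724 higher and 100 lower genes (4.97% and 0.686%, 5.65% in all), as all 47 libraries then set the spread. The difference between the 2 steps was called in 122 genes (0.837%), with the lights-off step above in 115 (0.789%) and below in 7 (0.048%), and under median-of-ratios scaling 102 and 31. Of the 115, 109 rose from ZT10 to ZT14 and fell from ZT22 to ZT2, as signs of the estimates. The choice of these genes by the difference of the 2 steps favours such signs.

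Of 17 glucocorticoid-responsive genes, 8 were called in this contrast (0.837% of all genes tested): Plin4, Fkbp5, Tsc22d3, Zbtb16, Sult1a1, Mertk, Ddit4 and Arrdc2. Each of the 8 had a positive step at lights-off and a negative step at lights-on, signs that their choice by the difference favours. Plin4 had steps of 1.14 and -0.66 (difference 1.80 ± 0.20, limma adjusted p = 1.55e-07), Fkbp5 of 0.65 and -0.36 (1.01 ± 0.11, 2.28e-07) and Tsc22d3 of 0.42 and -0.52 (0.94 ± 0.14, 0.000109). Means over the 6 times placed Fkbp5 at 9.71 TPM at ZT2, 10.6 at ZT6, 12.03 at ZT10, 19.6 at ZT14, 11.2 at ZT18 and 12.8 at ZT22. Tsc22d3 was at 46.98, 52.6, 69.1, 92.4, 71.2 and 68.0 TPM at the same times. Both peaked at ZT14 and had their trough at ZT2.

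Members of other lists were called as well, against the same 0.837% of all genes tested. Of the 13 clock repressors, Cry1 and Per3 differed between the transitions (0.48 and 0.44, adjusted p = 0.0103 and 0.0215), and Per1 and Per2 did not pass (0.73 and 0.72, adjusted p = 0.0649 and 0.0853). Among PAR bZIP genes Tef passed (0.44, adjusted p = 0.00239). Of 20 immediate early factors, 1 passed, Nr4a1 (1.39, adjusted p = 0.0287), and 4 of 25 effectors did, Arc, Trib1, Dusp6 and Dusp5 (2.95, 0.96, 0.91 and 0.90). Of 18 heat-shock genes 3 passed, Hspa1a, Hspa1b and Hspb1 (0.88, 1.11 and 0.73), and none of the 20 endoplasmic reticulum genes did. Of 14 endothelial genes, 3 passed (Mfsd2a, Ly6c1 and Slc2a1, at 0.94, 0.68 and 0.62), and Slc2a1 encodes the glucose transporter of the barrier. Among the 10 smallest p values also stood Atp10a, Xdh, Kirrel2, Aff1, a scaffold of elongation complexes, and Gpt2, a mitochondrial alanine aminotransferase, with differences of 1.04, 1.13, 1.08, 0.62 and 0.79. The count of 122 was 67, 73, 79 and 81 without control ZT10 mouse 3, control ZT14 mouse 3, PLX5622 ZT14 mouse 4 and control ZT22 mouse 3, and 233, 209 and 205 without PLX5622 ZT10 mouse 1, control ZT22 mouse 1 and control ZT14 mouse 2.

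**Figure D5:**
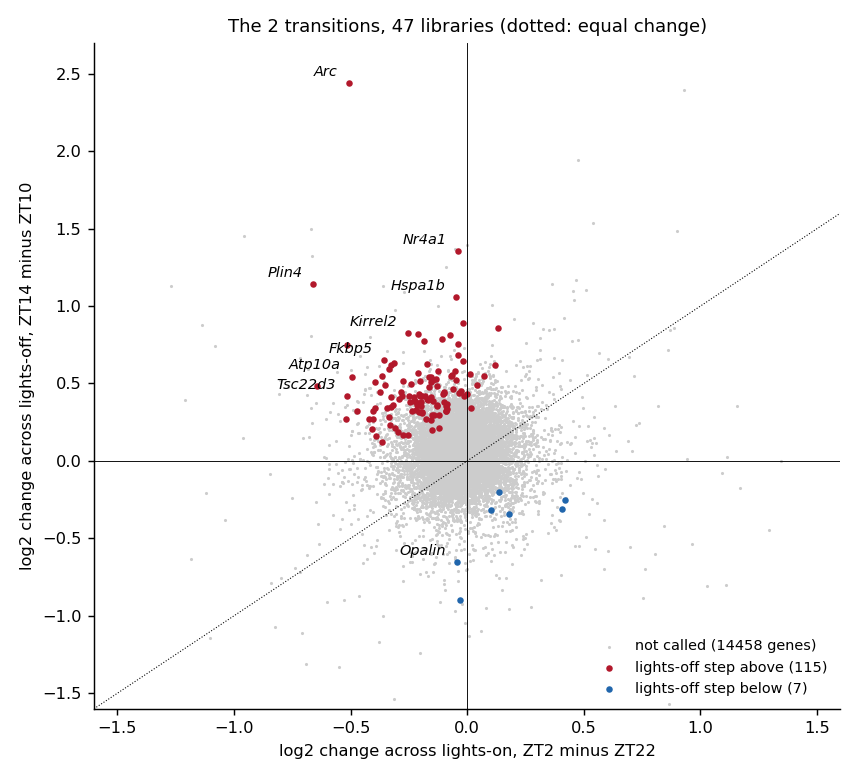
Log2 change across lights-on (ZT2 minus ZT22, x axis) and across lights-off (ZT14 minus ZT10, y axis) for each gene tested, from 1 fit of 47 libraries; red and blue mark the 115 and 7 genes whose steps differed, the dotted line marks equal steps, and 7 uncalled genes lie outside the axes. Plin4, Fkbp5 and Tsc22d3 lie in the upper left, where a gene rises at lights-off and falls at lights-on.

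Within the day, the lights-off step had the second highest count of called genes among the 6 steps of 4 h in the 47-library fit. From ZT2 to ZT6 37 genes were higher and 88 lower, from ZT6 to ZT10 8 and 2, from ZT18 to ZT22 1 and 1, and from ZT14 to ZT18 65 and 1703 (0.446% and 11.7%). The last of these counts depended on scaling, with a median log2 change over all genes of -0.15, and was 256 higher and 180 lower under median-of-ratios scaling, where the lights-off step had 558 and 350. These 2 steps share the ZT14 mice. Of the 156 genes higher at ZT14 than at ZT10, 146 had their highest mean of the day at ZT14, as a description, and 79 and 56 had their lowest at ZT6 and at ZT10. The choice of these genes by the same ZT10 and ZT14 mice favours a peak at ZT14 and a low mean at ZT10. Hspa5, Sdf2l1 and Fosl2 were among the 10 that did not peak at ZT14. Hspa5 and Sdf2l1 had means of 110 and 14.4 TPM at ZT14 and their highest means, 125 and 20.1 TPM, at ZT18, and Fosl2 had 7.59 TPM at ZT14 and 7.84 TPM at ZT2. Of the 20 lower genes, 16 were highest at ZT10 and 8 and 10 were lowest at ZT14 and ZT18. Their choice favours a peak at ZT10 and a low mean at ZT14 in the same way.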

How the data were processed

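RNA of microdissected cortex was sequenced, with 1 library per mouse. The authors mapped reads to GRCm38.p6 with STAR and estimated TPM per gene with Salmon and a GENCODE annotation, and the deposited TPM values have the same sum in each library. A second deposited table holds whole read counts per gene. Its file is named for another unit, its values are counts, and the sources name featureCounts without tying it to the table. Gene names and coordinates were taken from GENCODE (GRCm38), which held 99.68% of the IDs in the TPM table. The sequencing-quality terms that the authors put in their own models were not used here.

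Genes averaging 1 TPM or more across 47 libraries were fitted with limma 3.58.1 on log2(TPM + 1) in R 4.3.3, with diet as a covariate and Benjamini-Hochberg adjustment (threshold 0.05). Control ZT10 and ZT14 and PLX5622 ZT10 and ZT14 formed the 4 groups. Lights-on and the other steps came from 1 fit of 47 libraries with Zeitgeber time as a factor. Alternatives were edgeR 4.0.16 and DESeq2 1.42.0 on counts, no filter or 5 TPM, a pseudocount of 0.1, other scalings, a replicate block, further covariates and leaving out each mouse. Fits with the exon-length slope, without Pmch-rich libraries and without the fourth ZT10 mice were chosen after seeing the data. Scripts were tested on simulated data. Total counts of 16795170 to 27626161 per library limit the precision of low genes.

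Named genes were the 15 largest rises and up to 15 largest falls among called genes of at least 2 TPM with an ordinary symbol. Called members of the lists were named too, as were some of the clock genes that were not called. Further names came from the 10 smallest p for the diet and lights-on contrasts. Other list members with values in the text were chosen after their values were seen. The hypothalamic list was added after Pmch had been seen. The members and gene lists were chosen with earlier results of these data known.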

Additional observations from a re-analysis of the deposited data

Results flagged for a closer look

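In 183 groups of 4 mice, taken from the described genes and library measures, 14 had 1 mouse far from the other 3, where chance gives about 1 in 20 (9.15). Of these, 8 were values of activity-regulated genes in the fourth ZT10 or ZT14 mouse of a diet. The fourth control ZT10 mouse read 31.6 TPM for Fos (others 1.17 to 3.67), 90.8 TPM for Egr1 (23.6 to 29.3), 16.3 TPM for Npas4 (1.12 to 1.44), 43.2 TPM for Nr4a1 (12.7 to 14.5) and 90.8 TPM for Arc (13.7 to 25.6). The fourth PLX5622 ZT10 mouse read 10.5 TPM for Npas4 (1.01 to 2.36). At ZT14 the fourth PLX5622 mouse read 11.4 TPM for Npas4 (3.98 to 4.62) and 36.7 TPM for Dusp6 (25.7 to 27.3).

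Per2 stood at 17.7 TPM in the first PLX5622 ZT14 mouse (others 9.96 to 10.6), which was also the ZT14 mouse with Pmch at 25.98 TPM. Hlf stood at 49.9 TPM in the third control ZT10 mouse (61.8 to 63.7). The first control ZT10 mouse was low for Plin4 at 0.625 TPM (1.01 to 1.09) and for Hspa1a at 3.19 TPM (4.64 to 4.82), and the second was high for Zbtb16 at 9.45 TPM (5.83 to 6.26) and for Sdf2l1 at 12.3 TPM (9.91 to 10.3).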

How the results depend on the processing

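The number of called genes moved with the setting. From ZT10 to ZT14 the count was 62 without a filter, 28 at an adjusted p under 0.01, 72 with the mitochondrial share as a covariate, 1 with the exon-length slope and 3 without the Pmch-rich libraries, a fit with 1 control ZT10 mouse. It was 824 in the fit of all 47 libraries, 603 and 599 in edgeR with TMM and RLE scaling, 1146 in edgeR without a filter and 1308 in DESeq2. Fits that left out 1 mouse gave 35 to 373. The causes were not tested. For a difference between diets, the count of 0 became 1 without a filter and 1 in DESeq2, was 146 in edgeR without a filter, and was 0 to 0 without any 1 mouse. In control mice the count of 3 became 87 in edgeR and 1 without a filter, and 0 to 67 without 1 mouse; in PLX5622 mice the count of 2 became 9 in edgeR, and 0 to 2. Across lights-on the count of 3 became 19 in edgeR and 14 under median-of-ratios scaling, and 0 to 8. The difference between lights-off and lights-on gave 68 genes without a filter, 197 in edgeR and 67 to 233 without 1 mouse, against 122.

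Same-numbered mice of ZT10 and ZT14 within a diet had deviations that correlated at -0.175 to 0.089, and differently numbered ones at -0.156 to 0.215. Same-numbered mice of the 2 diets at 1 time correlated at -0.058 to 0.198 (0.126 for the fourth ZT10 mice), and differently numbered ones at -0.168 to 0.118. The numbers were not taken as pairs, as they are not stated to mark a shared cage or day. These correlations cannot show whether same-numbered mice shared one. With a replicate block the count was again 176, of which 132 were shared with the fit without it. The block gave 1 gene for the diet difference, 14 in control mice, 1 in PLX5622 mice, 4 across lights-on and 351 for lights-off against lights-on.

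Small changes that were not called took the other sign in some settings. Arntl (0.04) was -0.034, -0.047, -0.023, -0.017, -0.005, -0.016, -0.03 and -0.134 under median-of-ratios, upper-quartile, edgeR TMM, edgeR RLE, unfiltered edgeR, DESeq2, mitochondrial-share and exon-length settings. Dbp was -0.014 with median-of-ratios and -0.028 with upper-quartile scaling, Nr1d1 and Clock were -0.129 and -0.083 with the exon-length slope, and Rbm3 was 0.013 without the fourth ZT10 mice and -0.042 to 0.01 without any 1 mouse, above 0 only without control ZT10 mouse 4. Of 47 called genes followed through these settings, 20 stayed called without any 1 mouse. Klf4, Ier5, Spry2, Tnni1, Alkbh3, Tcta, Zfp335os and Aff1 were called and named but were not among the 47, so the stability of their calls is not given.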
